A study of Mus musculus with 12 samples.

Results

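Dopamine is made from tyrosine by tyrosine hydroxylase (Th) and aromatic L-amino acid decarboxylase (Ddc), with tetrahydrobiopterin, whose synthesis starts at GTP cyclohydrolase (Gch1), as the cofactor of the first step. It is loaded into vesicles by the vesicular monoamine transporter (Slc18a2) and broken down by the monoamine oxidases of the outer mitochondrial membrane (Maoa, Maob). The NR4A factors (Nr4a1, Nr4a2, Nr4a3) are orphan nuclear receptors of the immediate early class, and Nr4a2 is needed for midbrain dopamine neurons to form and to express Th. Maob is a known astrocyte enzyme in the adult brain, whereas Th, Ddc and Slc18a2 together mark monoamine neurons. These 9 of 54356 genes counted were taken by name as members of the pathway, with earlier results of these data known.

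RNA of C57BL/6 mouse astrocyte cultures from cortex or midbrain was sequenced in 12 libraries. Each region had 2 mock libraries, from cultures kept in growth medium, and 2 libraries after 2 weeks and 2 after 4 weeks of a short hairpin against the RNA-binding protein PTB (shPTB) in differentiation medium. The hairpin and the medium changed together and cannot be told apart, and both times of a region are set against the same mock libraries. Whether the 2 libraries of a group came from separate cultures is not in the labels, and a p-value here rests on the spread between libraries, which may be technical.

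Libraries held 6022098 to 11385761 reads, and levels are given in CPM, reads relative to the library size after scaling by the trimmed mean of M-values (TMM). A library with 0 reads of a gene could still hold up to 3, which is 0.163 to 0.576 CPM, and read intervals below cover counting error only. Mitochondrially encoded genes took 16.9 to 22.7% of reads in mock and 36.4 to 48.3% in shPTB libraries, and the TMM factors were 1.22 to 1.69 in mock and 0.68 to 0.953 in shPTB. Scaling to total reads instead moved the median log2 change of all genes against mock from -0.11 to -0.85 in cortex and from -0.07 to -0.74 in midbrain at 2 weeks. At 4 weeks it moved from -0.12 to -1.21 in cortex and from -0.15 to -1.01 in midbrain. The share of calls that were higher than mock went from 49.8 to 16.5%, 47 to 9.28%, 51.8 to 17.1% and 47.8 to 13.1% in the order cortex 2 and 4 weeks, midbrain 2 and 4 weeks.

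The astrocyte identity of the mock cultures was checked with 8 markers, all of which had reads in every group. Their summed level was 11373 to 22271 CPM in mock and 7807 to 15087 CPM in shPTB libraries, against 132 to 217 and 49.9 to 104 CPM for 8 neuronal markers. These went both ways, with 4 higher and 3 lower in cortex at 2 weeks (median log2 change 0.43) and 1 and 3 at 4 weeks (-0.01). In midbrain 1 was higher and 3 lower at 2 weeks (-0.40), and 1 and 5 at 4 weeks (-2.22). Microglia and macrophage markers summed to 1297 to 1924 CPM in mock and 20 to 104 CPM in shPTB libraries. Fibroblast and pericyte markers summed to 826 to 851 CPM in cortex mock and 2103 to 2214 CPM in midbrain mock, and to 50.9 to 331 CPM in shPTB libraries. In such bulk samples, fewer cells of a type and less RNA per cell cannot be told apart.

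Where the cAMP-responsive factor CREB binds, promoters carry the cAMP response element (CRE, TGACGTCA) or its core (CGTCA), and the NR4A factors bind the element AAAGGTCA (NBRE). RefSeq windows of 300 bases, from 250 before to 50 after a start site (GRCm38.p6), were on hand for 8 of the 9 genes, and each motif was searched on both strands. The stretches shown are those with a complete CRE (Th, Slc18a2) and those of the 3 NR4A genes, with every CRE or CRE core in capitals. They lie at chr7:142899996-142900095 (minus strand, Th), chr19:59260852-59260881 (plus, Slc18a2), chr15:101266596-101266845 (plus, Nr4a1), chr2:57124004-57124253 (minus, Nr4a2) and chr4:48045055-48045304 (plus, Nr4a3). Each ends at the base before the start site, except that of Slc18a2, which runs 4 bases past it, and that of Nr4a3 belongs to the start of the longer of its 2 coding transcripts with reads.
Th: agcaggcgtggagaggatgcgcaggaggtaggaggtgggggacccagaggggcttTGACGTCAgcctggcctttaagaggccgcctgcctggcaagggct
Slc18a2: cgccccctctcagcgctgtccgTGACGTCA
Nr4a1: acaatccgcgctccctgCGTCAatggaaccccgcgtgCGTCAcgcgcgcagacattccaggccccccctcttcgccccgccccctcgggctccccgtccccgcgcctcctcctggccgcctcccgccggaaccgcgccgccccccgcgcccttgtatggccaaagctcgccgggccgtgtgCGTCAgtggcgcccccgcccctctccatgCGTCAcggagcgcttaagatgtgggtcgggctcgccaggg
Nr4a2: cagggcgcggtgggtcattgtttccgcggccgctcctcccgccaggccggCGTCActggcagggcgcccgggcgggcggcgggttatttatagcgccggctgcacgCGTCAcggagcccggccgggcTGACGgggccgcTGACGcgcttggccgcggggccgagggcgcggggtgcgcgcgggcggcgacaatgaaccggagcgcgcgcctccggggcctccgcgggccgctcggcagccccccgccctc
Nr4a3: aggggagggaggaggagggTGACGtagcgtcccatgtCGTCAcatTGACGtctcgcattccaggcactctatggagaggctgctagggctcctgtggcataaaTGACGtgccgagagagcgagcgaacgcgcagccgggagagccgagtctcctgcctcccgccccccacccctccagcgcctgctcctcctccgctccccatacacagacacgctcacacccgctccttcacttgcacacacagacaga
The complete CRE began 45 bases before the start site of Th and 4 bases before that of Slc18a2, and 588 of 32851 windows of the same length (1.79%) held one. Each NR4A window held 4 CRE cores that did not overlap, where 20.8% of windows held at least 1 and 76 windows (0.231%) held 4 or more. Gch1 and Maoa had 1 core each, and the NBRE, present in 1.51% of windows, occurred once, 73 bases before the first start site of Ddc. A match describes the letters only.

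**Figure D1:**
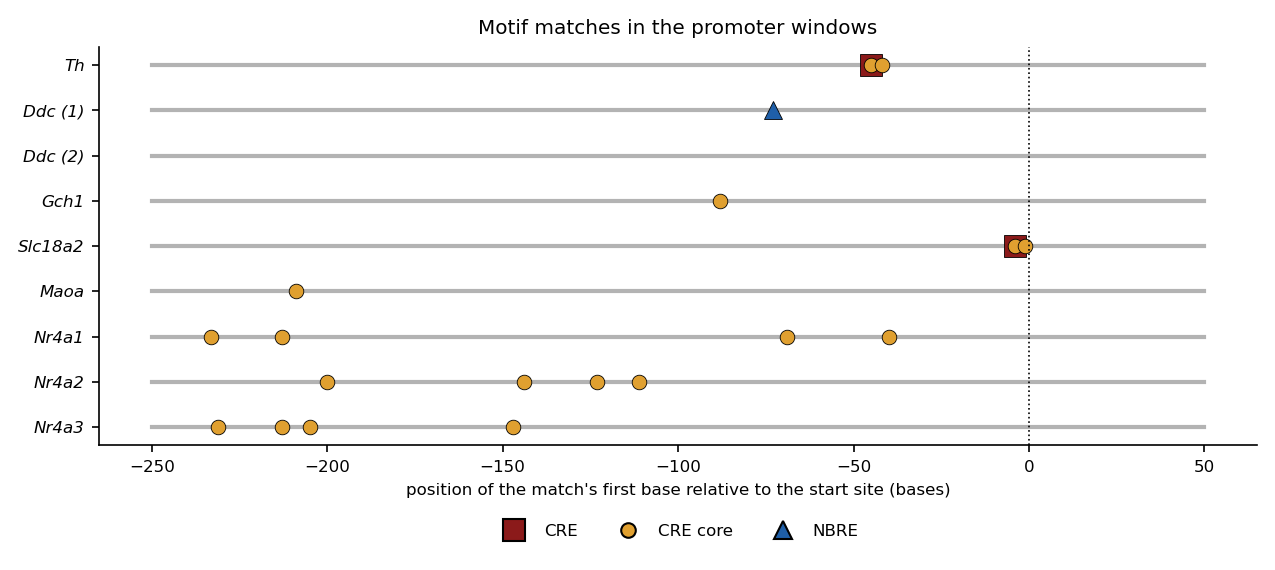
Motif matches in promoter windows of 8 genes, by distance from the start site in bases; squares are complete CREs, circles CRE cores and triangles NBREs, and Ddc has 2 windows. The 3 NR4A windows hold 4 cores each, and the cores of Th and Slc18a2 lie inside their CRE.

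Most of the 9 genes were close to the detection limit. Maoa had 24 to 117 reads per library and Maob 25 to 95, whereas no other member passed 26. The deposited TPM divides by Salmon's effective length, which itself differed between groups and is no measure of where 3′-primed reads fall, so levels of different genes compare only roughly. In midbrain mock the mean TPM was 1.21 ± 0.39 for Maob, 0.491 ± 0.023 for Maoa and 0.316 ± 0.12 for Slc18a2 (SD, n = 2), and in the other 6 members it was at most 0.243. Over all 12 libraries the median TPM was 1.09 for Maob and 0.441 for Maoa, and at most 0.169 for the other 7. The test asked for 1.08 CPM on total reads in at least 2 libraries, which 7 members met and Ddc and Gch1 did not; tested below means in this edgeR fit. Th met it only in cortex shPTB libraries, Slc18a2 only in the midbrain mock libraries and Nr4a1 only in shPTB libraries. Nr4a2 met it in 4 libraries, all at 2 weeks except midbrain mock library 1. These genes were thus tested because of the groups where they were high. The counts below therefore describe the tested members and support nothing about the set.

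**Figure D2:**
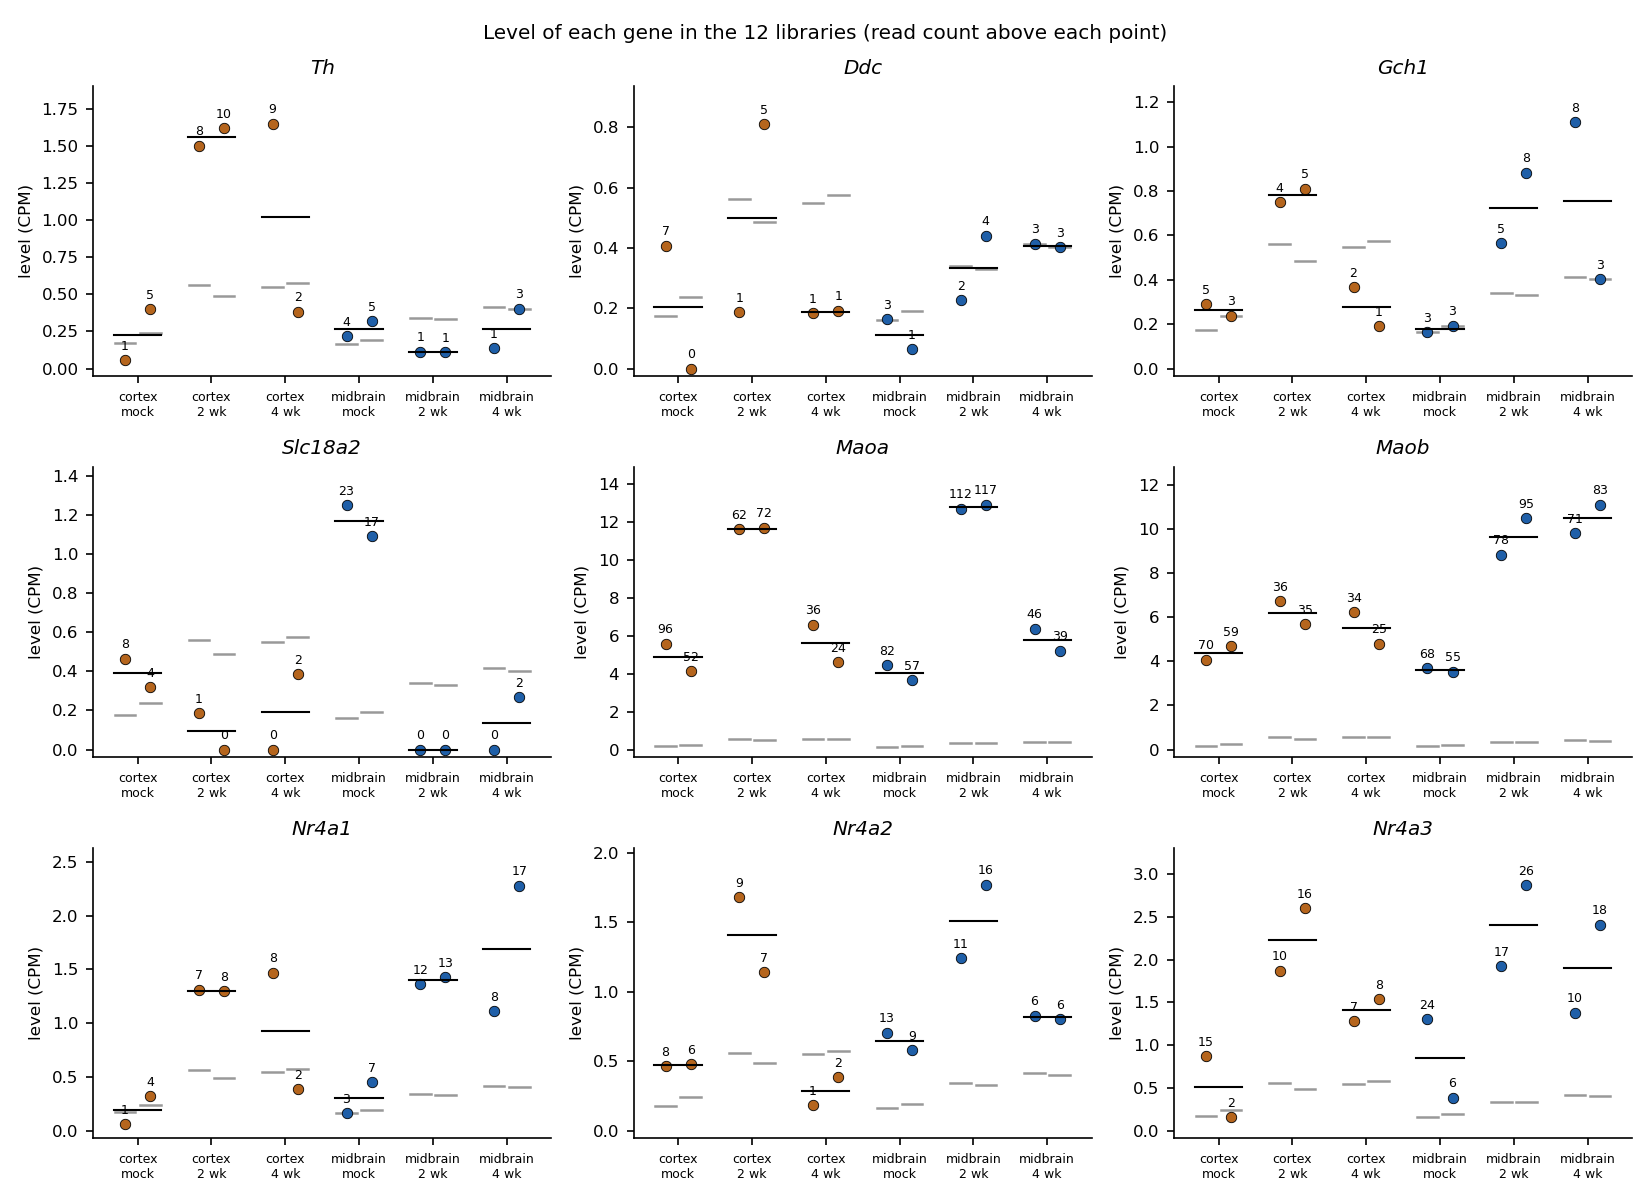
Level in CPM (vertical axis, linear) of each gene in the 12 libraries by group; points are libraries with their read count above, black lines group means, and grey lines the level of 3 reads in that library. Maoa and Maob stand far above the grey lines in every library, and Ddc lies near or under them in most.

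Against mock, the quasi-likelihood test of edgeR called 4 of the 7 tested members higher in cortex at 2 weeks (Th, Maoa, Nr4a1, Nr4a2), where 17.5% of all 14607 genes tested were higher, and 0 lower, where 17.6% were. In cortex at 4 weeks it called 0 higher and 0 lower, against 18.5% and 20.9% of all genes. At an unadjusted p under 0.05 there were 2 in cortex at 4 weeks, and DESeq2 called 0 there. In midbrain at 2 weeks 2 were higher (Maoa, Maob), against 15.9%, and 1 lower (Slc18a2), against 14.7%. In midbrain at 4 weeks 2 were higher (Maob, Nr4a1), against 18.7%, and 0 lower, against 20.4%. The median log2 change of the tested members was 1.55, 0.34, 1.42 and 0.51 in that order, beside -0.11, -0.12, -0.07 and -0.15 for all genes.

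**Figure D3:**
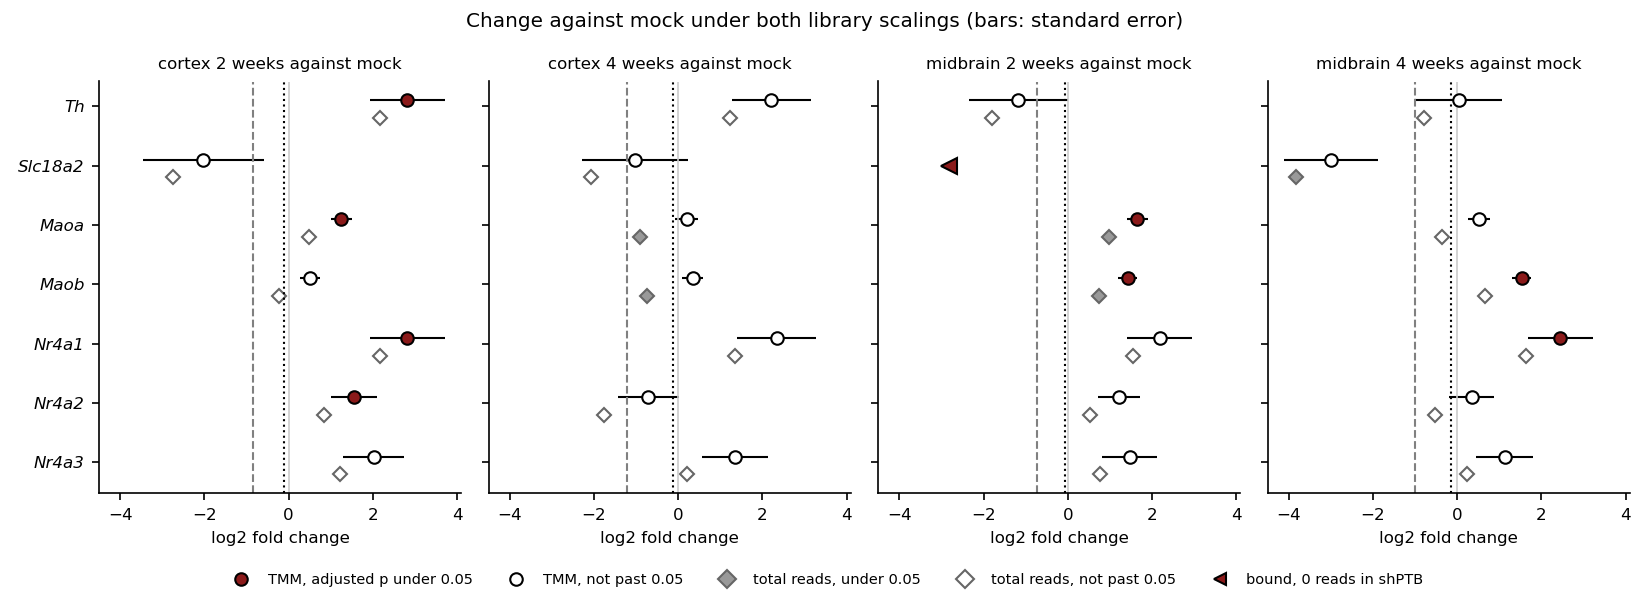
Log2 fold change against mock (horizontal axis) of the 7 tested genes in 4 comparisons; circles are TMM-scaled values with standard errors, diamonds values scaled to total reads, filled where the adjusted p was under 0.05, and the triangle a bound. Dotted and dashed lines are the medians of all genes under TMM and total reads, and total-read scaling moves every gene shown with both values to the left.

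Th, which turns tyrosine into L-DOPA and limits the rate of the pathway (chr7:142892752-142931128, minus strand), was higher in cortex at 2 weeks and had 50 reads in all. Cortex mock had 1 and 5 reads, the 2-week libraries 8 and 10, and the 4-week libraries 9 and 2. Midbrain mock had 4 and 5 reads, the 2-week libraries 1 and 1, and the 4-week libraries 1 and 3. Both cortex 2-week libraries were thus above all mock libraries, the first cortex 4-week library was as high and the second lay among the mock libraries, and both midbrain 2-week libraries were below their mock. All reads fell on the main coding transcript, whose last 500 bases share no 31-base word with another gene.

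The cortex level of Th was 0.228 ± 0.24 CPM in mock and 1.56 ± 0.0885 CPM at 2 weeks (SD, n = 2), and edgeR gave a log2 change of 2.82 ± 0.89 (SE, adjusted p = 0.03). By summed reads this was 7.77-fold, with an exact 95% counting interval of 2.95 to 23.9. At 4 weeks the cortex change was 2.21 ± 0.94 (adjusted p = 0.0836), and in midbrain the values were -1.17 ± 1.18 at 2 weeks (0.477) and 0.03 ± 1.03 at 4 weeks (0.988). The midbrain response at 2 weeks minus the cortex response was -3.98 ± 1.46, which did not pass (adjusted p = 0.374). Midbrain against cortex at 2 weeks was -3.66 ± 1.06 (0.103), which passed in a fit on only these groups (-3.61, 0.00208). That fit called 3209 of 11986 genes, where the fit of all groups called 430 of 14607. The call in cortex at 2 weeks ended without cortex mock library 1 (1.93, 0.196), without either 2-week library (2.86, 0.104, and 2.74, 0.132), with DESeq2 (2.82, 0.08), with total reads (2.16, 0.0599) and with a length offset (2.44, 0.0642). Without cortex mock library 2, the 4-week change passed (3.86, 0.0376).

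Th in cortex was above mock in both libraries at 2 weeks but only in library 1 at 4 weeks (1.65 and 0.384 CPM). Oligodendrocyte and precursor markers in cortex summed to 46.6 to 48.6 CPM in mock, 199 to 220 at 2 weeks and 202 to 209 at 4 weeks. In midbrain they summed to 36.9 to 47, 46.2 to 55.2 and 46.1 to 48.6 CPM, with Mog at 0 reads in both mock groups and at 4 weeks in midbrain. Of the 8 markers, 7 were tested, with 5 higher and 1 lower in cortex at 2 weeks and 4 higher and 1 lower in midbrain at 2 weeks. At 4 weeks 4 markers were higher and 1 lower in cortex, and 2 and 1 in midbrain. Their part in the Th values was not tested. By mean level the groups ranked cortex 2 weeks, cortex 4 weeks, midbrain 4 weeks, midbrain mock, cortex mock and midbrain 2 weeks, and each neighbouring pair overlapped.

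Ddc, which turns L-DOPA into dopamine (chr11:11814101-11898144, minus strand), had 31 reads in all and was left out by the count filter. The cortex libraries had 7 and 0 reads in mock, 1 and 5 at 2 weeks and 1 and 1 at 4 weeks. The midbrain libraries had 3 and 1, 2 and 4, and 3 and 3. No comparison with mock had a counting interval that excluded no change, from 0.798-fold (0.0809 to 4.19) in cortex at 4 weeks to 3.47-fold (0.823 to 16.7) in midbrain at 4 weeks. The reads lay on 2 transcripts annotated as processed, without a coding frame, and 13.8% of the 31-base words at the end of the longer of these also occur in 203 other genes. Those reads are therefore uncertain. DESeq2, which kept Ddc, called no change against mock (log2 changes -0.19 to 1.81, adjusted p = 0.458 to 0.961), and no change of Ddc was detectable at this depth.

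Gch1, the entry enzyme of tetrahydrobiopterin synthesis (chr14:47153895-47189413, minus strand), had 50 reads and was left out by the count filter. The cortex libraries had 5 and 3 reads in mock, 4 and 5 at 2 weeks and 2 and 1 at 4 weeks. The midbrain libraries had 3 and 3, 5 and 8, and 8 and 3. Effective library sizes were larger in mock, and in CPM the level was 0.178 ± 0.0211 CPM in midbrain mock, 0.724 ± 0.224 at 2 weeks and 0.754 ± 0.497 at 4 weeks (SD, n = 2). In TMM-scaled CPM both midbrain shPTB groups lay above their mock in both libraries, with ratios of summed reads of 4.12 (exact 95% interval 1.46 to 13.2) and 4.24 (1.44 to 14). In cortex the ratios were 2.91 (0.997 to 8.68) and 1.05 (0.179 to 4.36), and these intervals hold no spread between libraries. Salmon's effective length of the coding transcript was 1753 and 2479 bases in midbrain mock, 5352 and 5369 at 2 weeks and 8220 and 8178 at 4 weeks. The deposited midbrain TPM was 0.0681 and 0.0365, 0.0427 and 0.067, and 0.0475 and 0.0173. It showed no rise, so the midbrain values of Gch1 depended on the scale. DESeq2, which kept Gch1, gave 2.01 ± 1.18 (adjusted p = 0.231) and 2.07 ± 1.19 (0.193) in midbrain and 1.54 ± 1.18 (0.367) and 0.06 ± 1.36 (0.988) in cortex, and edgeR without a count filter called none of the 4 either (adjusted p = 0.191 to 1).

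Slc18a2, the vesicular transporter (chr19:59260896-59296012, plus strand), was the member whose reads were mostly in mock. Midbrain mock had 23 and 17 reads, midbrain 2-week libraries 0 and 0, and midbrain 4-week libraries 0 and 2. Cortex mock had 8 and 4 reads, the 2-week libraries 1 and 0, and the 4-week libraries 0 and 2. Both midbrain mock libraries were above every other library, and all reads fell on the main coding transcript.

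Midbrain mock stood at 1.17 ± 0.111 CPM (SD, n = 2), and at 2 weeks Slc18a2 was at least 7.02-fold lower (0 reads, bounded by 3 over the group; edgeR adjusted p = 0.0132). At 4 weeks it was 8.65-fold lower by summed reads (2 against 40, exact 95% interval 2.24 to 73.9), and its log2 change of -3.00 ± 1.11 did not pass (adjusted p = 0.0542). Scaling to total reads (-3.83, 0.0176), no count filter (-3.06, 0.037), a length offset (-3.42, 0.0349), a fit on the compared groups only (-3.02, 0.0372) and leaving out both mock libraries numbered 2 (-3.07, 0.0481) carried it past. In cortex the ratios of summed reads were 4.64-fold lower (0.686 to 198) at 2 weeks and 2.15-fold lower (0.478 to 19.8) at 4 weeks, and neither passed (0.301 and 0.55). The 2-week midbrain call ended without either 2-week library (adjusted p = 0.0836 and 0.0849). In mock, midbrain exceeded cortex 2.92-fold by reads (1.5 to 6.11), but edgeR gave 1.53 ± 0.82 (adjusted p = 0.679). All marker sums but that of oligodendrocytes were also lower in midbrain shPTB than in midbrain mock libraries. Neuron markers summed to 132 to 154 against 49.9 to 84.7 CPM, endothelial to 17.9 to 24.5 against 7.05 to 11.1, and astrocyte to 11373 to 14855 against 7807 to 10634. Ependymal and choroid plexus markers summed to 156 to 194 against 76.1 to 78.3 CPM, and proliferation markers to 207 to 210 against 7.5 to 26.2 CPM. Microglia and fibroblast sums are given above, and the part of these cells was not tested.

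Maoa, which oxidizes serotonin, noradrenaline and dopamine (chrX:16619698-16687818, plus strand), rose at 2 weeks in both regions and fell from 2 to 4 weeks in midbrain. The cortex libraries had 96 and 52 reads in mock, 62 and 72 at 2 weeks and 36 and 24 at 4 weeks, or 4.86 ± 1.02, 11.6 ± 0.055 and 5.6 ± 1.4 CPM (SD, n = 2). The midbrain libraries had 82 and 57, 112 and 117, and 46 and 39 reads, or 4.05 ± 0.558, 12.8 ± 0.168 and 5.79 ± 0.801 CPM. All 4 libraries at 2 weeks lay above the other 8, with midbrain above cortex, and the 4-week groups overlapped each other and, in cortex, the mock libraries.

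Maoa rose at 2 weeks by 1.25 ± 0.25 in cortex (log2, edgeR adjusted p = 0.00294) and by 1.65 ± 0.25 in midbrain (0.000556). At 4 weeks the changes against mock were 0.20 ± 0.27 (0.579) and 0.51 ± 0.26 (0.138). From 2 to 4 weeks Maoa fell by 1.14 in midbrain (adjusted p = 0.0395) and changed by -1.05 ± 0.27 in cortex (0.0683). The midbrain fall ended without any 1 of its 4 libraries (-1.01 to -1.29, 0.216 to 0.299) and with total reads (-1.34, 0.059). The cortex change passed in a fit on only the 2- and 4-week libraries (-1.09, 0.00264), with total reads (-1.40, 0.0418) and with a length offset (-1.64, 0.017). These settings called 2608 of 10858, 933 of 14607 and 328 of 14607 genes there, where the fit of all groups called 405. The midbrain rise at 2 weeks passed under all 15 alternatives (0.97 to 1.80), and the cortex rise under 13 of 15.

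The cortex values of Maoa depended on the scale. With total reads the 2-week rise was 0.48 (adjusted p = 0.237) and the 4-week value -0.91 (0.0412), and with a length offset they were 0.61 (0.0994) and -1.02 (0.015). Salmon's bias-corrected effective length of the only transcript, of 4167 bases, differed between the groups. It was 5569 and 4776 bases in cortex mock, 11045 and 11783 at 2 weeks and 19157 and 19280 at 4 weeks, and the deposited TPM was accordingly 0.779 and 0.472, 0.409 and 0.369, and 0.0923 and 0.0637. In midbrain the effective length was 6464 and 4763, 8084 and 7936, and 12330 and 12473 bases. The TPM there was 0.507 and 0.475, 0.633 and 0.666, and 0.18 and 0.149. Of the 31-base words in the last 500 bases of Maoa, 8.51% also occur in 61 other genes.

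**Figure D4:**
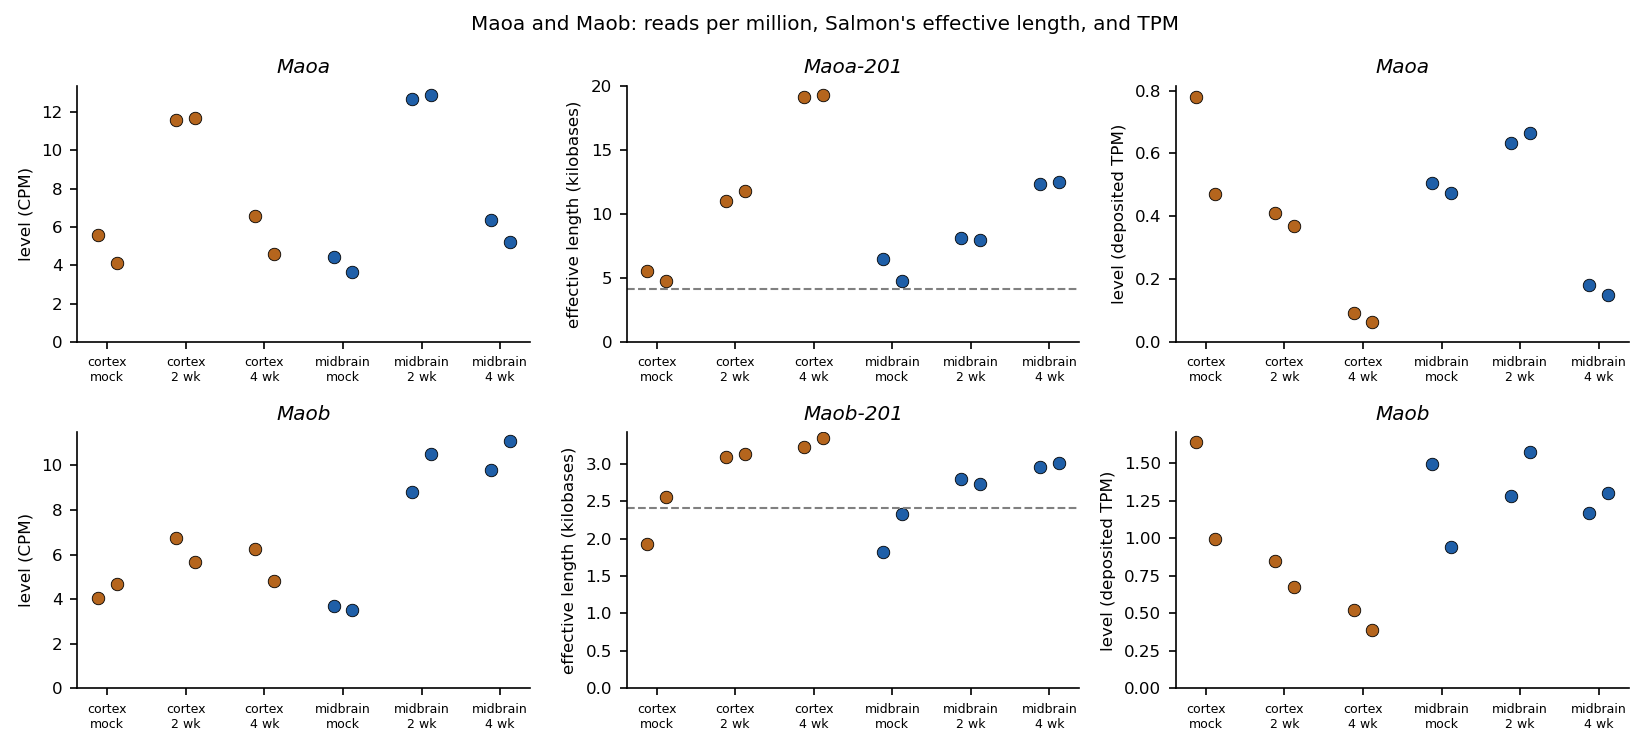
Maoa (top) and Maob (bottom) in 12 libraries as CPM, as effective length of the main transcript in kilobases (dashed line: annotated length), and as deposited TPM; points are libraries. The effective length of the Maoa transcript runs from 4763 to 19280 bases, and in cortex its CPM is higher at 2 weeks than in mock while its TPM is not. For Maob in midbrain, CPM is higher in shPTB than in mock libraries while TPM overlaps.

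Maob, the astrocyte monoamine oxidase (chrX:16709282-16817366, minus strand), rose in midbrain at both times in TMM-scaled CPM. The midbrain libraries had 68 and 55 reads in mock, 78 and 95 at 2 weeks and 71 and 83 at 4 weeks, or 3.61 ± 0.112, 9.65 ± 1.17 and 10.5 ± 0.923 CPM (SD, n = 2). The cortex libraries had 70 and 59, 36 and 35, and 34 and 25 reads, or 4.38 ± 0.443, 6.21 ± 0.749 and 5.52 ± 1.01 CPM. In CPM every midbrain shPTB library was above every other library, and the cortex shPTB libraries lay between them and mock. The deposited midbrain TPM overlapped, at 1.49 and 0.939 in mock, 1.28 and 1.57 at 2 weeks and 1.17 and 1.3 at 4 weeks. The cortex TPM was 1.64 and 0.996, 0.847 and 0.676, and 0.524 and 0.386. In TPM every cortex shPTB library was thus below both cortex mock libraries.

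In midbrain the log2 change of Maob was 1.42 ± 0.23 at 2 weeks (edgeR adjusted p = 0.001) and 1.53 ± 0.23 at 4 weeks (0.00049), and in cortex 0.50 ± 0.24 (0.131) and 0.34 ± 0.25 (0.304). The midbrain response minus the cortex response was 0.91 ± 0.33 at 2 weeks (0.37) and 1.19 ± 0.34 at 4 weeks (0.108), and neither passed. Within the 4-week libraries midbrain was higher than cortex by 0.92 ± 0.24 (0.0424), the only member of 7 called there, where 7.99% of all genes were called. That call ended without any 1 of the 4 libraries (0.75 to 1.12, 0.109 to 0.291), with DESeq2 (0.93, 0.135), with no count filter (0.94, 0.0983) and with a length offset (0.91, 0.0865). With total reads the midbrain rise was 0.75 (0.0429) at 2 weeks and 0.66 (0.057) at 4 weeks, and the cortex values turned to -0.22 (0.516) and -0.74 (0.0415). With a length offset the midbrain rise was 1.55 (0.00233) and 1.60 (0.00136). Without both mock libraries numbered 1, the difference of the responses at 4 weeks passed (1.34, 0.0228).

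Nr4a1 (Nur77; chr15:101254269-101274795, plus strand) had more reads in most shPTB libraries than in the deeper mock libraries. Cortex had 1 and 4 reads in mock, 7 and 8 at 2 weeks and 8 and 2 at 4 weeks. Midbrain had 3 and 7, 12 and 13, and 8 and 17. After TMM scaling, all shPTB libraries but cortex 4-week library 2 were above all 4 mock libraries. The deposited midbrain TPM overlapped, at 0.0397 and 0.0757 in mock, 0.0625 and 0.0662 at 2 weeks and 0.0411 and 0.0828 at 4 weeks. Salmon's effective length of the main transcript was there 3004 and 3685, 8782 and 8843, and 9492 and 9680 bases. In cortex the TPM was 0.0137 and 0.0377, 0.0541 and 0.049, and 0.0263 and 0.00681. The midbrain values of Nr4a1 thus depended on the scale.

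The cortex level of Nr4a1 was 0.188 ± 0.184 CPM in mock and 1.3 ± 0.00861 at 2 weeks (SD, n = 2), a log2 change of 2.82 ± 0.89 (edgeR adjusted p = 0.0294). At 4 weeks the cortex change was 2.34 ± 0.94 (0.0683). Midbrain rose from 0.306 ± 0.203 to 1.69 ± 0.828 CPM at 4 weeks (2.45 ± 0.77, 0.0267), after 2.18 ± 0.77 at 2 weeks (0.0517). The cortex call ended without cortex mock library 1 (1.98, 0.166), without either 2-week library (2.81, 0.101, and 2.82, 0.111), with total reads (2.16, 0.0589) and with a length offset (2.03, 0.103). The midbrain call ended without midbrain mock library 1 (1.87, 0.142), without 4-week library 2 (1.83, 0.214), with total reads (1.63, 0.0868) and with a length offset (1.55, 0.147), and the other 2 changes passed without mock library 2 of their region (adjusted p = 0.0337 in cortex at 4 weeks and 0.0411 in midbrain at 2 weeks).

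Nr4a2 (Nurr1, chr2:57106830-57124003, minus strand), the factor tied to dopamine neurons, had its highest levels at 2 weeks in TMM-scaled CPM. Cortex had 8 and 6 reads in mock, 9 and 7 at 2 weeks and 1 and 2 at 4 weeks, or 0.471 ± 0.00889, 1.41 ± 0.388 and 0.284 ± 0.142 CPM. Midbrain had 13 and 9, 11 and 16, and 6 and 6 reads, or 0.642 ± 0.0901, 1.51 ± 0.368 and 0.816 ± 0.018 CPM (SD, n = 2). In CPM the 4 libraries at 2 weeks were above the other 8, and the cortex 4-week libraries were the lowest. In deposited TPM the 2-week and mock libraries overlapped in both regions. The cortex TPM was 0.2 and 0.133 in mock, 0.249 and 0.145 at 2 weeks and 0.0203 and 0.0429 at 4 weeks. The midbrain TPM was 0.293 and 0.193, 0.197 and 0.286, and 0.121 and 0.125. The main coding transcript held 87.8 to 100% of the reads of a group. Of the sequence words at its end, searched as for Maoa, 4.47% also occur in 1409 other genes. The assignment of these few reads to Nr4a2 is therefore uncertain, and its part in the changes below was not tested.

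In cortex at 2 weeks Nr4a2 was higher by 1.55 ± 0.55 (log2, edgeR adjusted p = 0.0477). In midbrain at 2 weeks the value was 1.21 ± 0.50 (0.0865), and at 4 weeks -0.71 ± 0.73 in cortex (0.512) and 0.34 ± 0.54 in midbrain (0.644). From 2 to 4 weeks in cortex it was -2.26 ± 0.70 (0.136), a ratio of 0.202 by 3 against 16 reads (exact 95% interval 0.0378 to 0.707). With total reads the 2-week changes against mock were 0.83 in cortex (edgeR adjusted p = 0.248) and 0.54 in midbrain (0.413). At 4 weeks they were -1.76 (0.0562) and -0.53 (0.439). The cortex call ended under 11 of 13 alternatives, among them each of its 4 libraries left out (without mock library 1 1.52, 0.173, mock library 2 1.56, 0.115, 2-week library 1 1.24, 0.243, and 2-week library 2 1.81, 0.0896).

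Nr4a3 (Nor1; chr4:48045153-48086447, plus strand) was the NR4A gene with the most reads, 159, and it passed in no comparison with the TMM-scaled fit of all groups. Cortex had 15 and 2 reads in mock, 10 and 16 at 2 weeks and 7 and 8 at 4 weeks. Midbrain had 24 and 6, 17 and 26, and 10 and 18. In both regions mock library 1 held more reads than mock library 2, and all shPTB libraries were above both mock libraries of their region after TMM scaling. The deposited TPM showed no such rise. In cortex it was 0.122 and 0.0122 in mock, 0.0659 and 0.0839 at 2 weeks and 0.0207 and 0.0241 at 4 weeks. In midbrain it was 0.202 and 0.0606, 0.0706 and 0.0919, and 0.031 and 0.0493.

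The log2 changes of Nr4a3 against mock were 2.02 ± 0.73 (edgeR adjusted p = 0.0512) and 1.35 ± 0.78 (0.194) in cortex at 2 and 4 weeks, and 1.47 ± 0.66 (0.112) and 1.13 ± 0.68 (0.208) in midbrain. Without mock library 1 of the region they were 3.70 (0.0154), 3.03 (0.0432) and, in midbrain at 2 weeks, 2.59 (0.0428), all past the threshold. In cortex at 2 weeks it also passed with RLE size factors (2.02, 0.0495) and no count filter (1.94, 0.00895), and in midbrain at 4 weeks without both mock libraries numbered 1 (2.26, 0.00866). With total reads the changes, in the order above, were 1.21 (edgeR adjusted p = 0.233), 0.20 (0.844), 0.76 (0.417) and 0.23 (0.808). With a length offset they were 1.65 (0.101), 0.57 (0.571), 0.67 (0.475) and -0.09 (0.93). The shorter coding transcript held all 26 reads in cortex at 2 weeks, whereas in midbrain at 2 weeks 26 reads were given to the longer and 17 to the shorter. Both transcripts have the same exons but for their start and 2 bases at the end, so the division of reads between them is uncertain with 3′-primed reads.

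By mean CPM, the Maoa order was midbrain 2 weeks, cortex 2 weeks, midbrain 4 weeks, cortex 4 weeks, cortex mock and midbrain mock, with neighbours overlapping from midbrain 4 weeks on. For Maob it was midbrain 4 weeks, midbrain 2 weeks, cortex 2 weeks, cortex 4 weeks, cortex mock and midbrain mock, where the midbrain pair and the cortex shPTB pair overlapped. Nr4a1 ran midbrain 4 weeks, midbrain 2 weeks, cortex 2 weeks, cortex 4 weeks, midbrain mock and cortex mock, with a gap only between midbrain 2 weeks and cortex 2 weeks. Nr4a2 ran midbrain 2 weeks, cortex 2 weeks, midbrain 4 weeks, midbrain mock, cortex mock and cortex 4 weeks, and only the first pair overlapped. Nr4a3 ran midbrain 2 weeks, cortex 2 weeks, midbrain 4 weeks, cortex 4 weeks, midbrain mock and cortex mock, and each neighbouring pair overlapped. Slc18a2 ran midbrain mock, cortex mock, cortex 4 weeks, midbrain 4 weeks, cortex 2 weeks and midbrain 2 weeks, with a gap only after midbrain mock. Gch1 had gaps between midbrain 2 weeks and cortex 4 weeks and above midbrain mock, the lowest group, and Ddc only above midbrain mock, also the lowest.

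Between the times and regions few members were called. In cortex from 2 to 4 weeks edgeR called 0 of 7 (2.77% of all genes; 2 at an unadjusted p under 0.05, DESeq2 0), and in midbrain 1, Maoa (2.66% of all genes). Midbrain against cortex gave 0 in mock (2.19% of all genes; 0 unadjusted, DESeq2 0) and 0 at 2 weeks (2.94%; 2 unadjusted, DESeq2 0). The difference of the regions' responses gave 0 at 2 weeks (0.685%; 2 unadjusted, DESeq2 0) and 0 at 4 weeks (2.55%; 1 unadjusted, DESeq2 0).

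Genes related to dopamine were read from 8 further lists, whose medians are log2 changes against mock in the order cortex 2 and 4 weeks, midbrain 2 and 4 weeks, beside -0.11, -0.12, -0.07 and -0.15 for all genes. In that order 17.5, 18.5, 15.9 and 18.7% of all genes were higher and 17.6, 20.9, 14.7 and 20.4% lower, the shares beside which each list's counts stand. As among the members, a list gene may have been tested only because of the groups where it was high. The counts and medians thus describe the tested genes and support nothing about a list. The tetrahydrobiopterin list (8 genes, all tested) had 2 higher and 1 lower in cortex at 2 weeks, 1 and 2 at 4 weeks, 2 and 2 in midbrain at 2 weeks and 2 and 3 at 4 weeks (medians -0.38, -0.13, -0.36 and -0.24). Spr, which catalyses the last step of cofactor synthesis, was higher in all 4 comparisons (0.85 to 1.60). Gchfr, the feedback regulator of Gch1, stood at 4.96 ± 0.88 CPM in midbrain mock, 0.393 ± 0.244 at 2 weeks and 1.08 ± 0.938 at 4 weeks, log2 changes of -3.62 ± 0.60 (adjusted p = 0.00115) and -2.18 ± 0.53 (0.00823). Akr1b3, aldose reductase, was lower in all 4 (-0.99 to -1.90). Among the calls of Spr, Gchfr and Akr1b3, 3 ended with 1 library left out: Spr in cortex at 2 weeks without mock library 1 (0.61) or either 2-week library (0.90, 0.79), Gchfr in midbrain at 4 weeks without 4-week library 1 (-1.50), and Akr1b3 there without 4-week library 2 (-0.97). With total reads the Spr value in cortex at 2 weeks was 0.15 (0.442), and with a length offset that of Gchfr in midbrain at 4 weeks was -1.24 (0.117).

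Of 10 breakdown and conversion genes, 6 were tested, and 2 were higher and 0 lower in each comparison with mock (medians 0.60, 0.25, 0.15 and 0.45). Both are aldehyde dehydrogenases, which oxidize the aldehyde that monoamine oxidase makes. Aldh1a1, also an enzyme of retinoic acid synthesis, stood at 45.2 ± 11.1 CPM in cortex mock, 329 ± 4.24 after 2 weeks and 1120 ± 44.7 after 4 weeks (log2 changes 2.86 ± 0.26 and 4.63 ± 0.28, with adjusted p of 1.87e-05 and 8.73e-07). In midbrain it went from 39.8 ± 13.4 to 314 ± 17.4 and 872 ± 19.6 CPM (2.98 ± 0.26 and 4.45 ± 0.28, 1.54e-05 and 1.11e-06), and these calls passed under each alternative run. Aldh2 was higher by 0.98 to 1.71, and its midbrain call at 2 weeks ended without mock library 1 (0.66) or either 2-week library (0.96, 0.99). With total reads Aldh2 did not pass in midbrain at 2 weeks (0.34, 0.099) or cortex at 4 weeks (0.37, 0.0605). Dbh, which makes noradrenaline, had 0 reads in all 12 libraries, as had Slc6a3 (the dopamine transporter), Drd3 and Drd5, and 3 reads over all libraries would be 0.0253 CPM.

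Of 7 monoamine transporters 2 were tested, and Slc29a4, a low-affinity plasma membrane monoamine transporter, was lower in cortex at 4 weeks (-1.89 ± 0.42, adjusted p = 0.00458), a call that ended without 4-week library 1 (-1.65, 0.0559). Of 8 receptor and signalling genes 4 were tested, with 2 higher and 0 lower in cortex at each time, 1 and 0 in midbrain at 2 weeks and 2 and 1 at 4 weeks (medians 1.37, 0.58, 0.37 and 0.69). Drd1 had 0 to 3 reads per library and Drd4 0 to 3. Drd2, the inhibitory dopamine receptor, had 34 reads in midbrain mock, 9 at 2 weeks and 0 at 4 weeks, at least 4.9-fold lower at 4 weeks (adjusted p = 0.00603), and 6, 6 and 1 in cortex. Adcy5, the adenylyl cyclase of striatal dopamine signalling, was higher in all 4 comparisons (2.14 to 3.41). Ppp1r1b (DARPP-32), the phosphatase inhibitor regulated by dopamine, was higher in cortex at 2 weeks (1.40 ± 0.26), cortex at 4 weeks (3.60 ± 0.27) and midbrain at 4 weeks (1.86 ± 0.26), with 0.32 ± 0.26 in midbrain at 2 weeks (0.37).

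Of 8 transcription factors of dopamine neurons 4 were tested, and 2 were higher in cortex at each time and 4 in midbrain at each time (medians 2.39, 1.82, 2.03 and 2.08), where 17.5 and 18.5% of all genes were higher in cortex and 15.9 and 18.7% in midbrain. En1, a midbrain homeodomain factor, stood at 1.44 ± 0.42 CPM in midbrain mock, 11.6 ± 0.268 at 2 weeks and 9.47 ± 1.46 at 4 weeks, log2 changes of 3.02 ± 0.40 (adjusted p = 0.000279) and 2.72 ± 0.41 (0.000446). In cortex En1 went from 0.742 ± 0.638 to 7.09 ± 0.76 and 5.81 ± 0.0677 CPM (3.32 ± 0.46 and 3.04 ± 0.47). Lmx1b was higher in all 4 comparisons (1.24 to 1.51), and Foxa1 (2.82 and 2.68) and Otx2 (0.74 and 0.99) in midbrain at 2 and 4 weeks. Lmx1a had at most 3 reads in a library and Foxa2 at most 1. Of 12 calls 5 ended with 1 library left out: Lmx1b in cortex at 2 weeks (without mock library 1 0.95, 2-week libraries 1.38 and 1.59), in cortex at 4 weeks (0.97, 4-week libraries 1.54 and 1.47) and in midbrain at 2 weeks (1.08, 2-week libraries 1.15 and 1.32), Otx2 in midbrain at 2 weeks (0.70, 2-week libraries 0.67 and 0.81), and Foxa1 in midbrain at 4 weeks without 4-week library 1 (2.43). Total reads ended each Lmx1b and Otx2 call (0.48 to 0.81 and 0.08 to 0.12), and a length offset each Lmx1b call (0.18 to 0.79) and the 2-week Otx2 call (0.48).

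**Figure D5:**
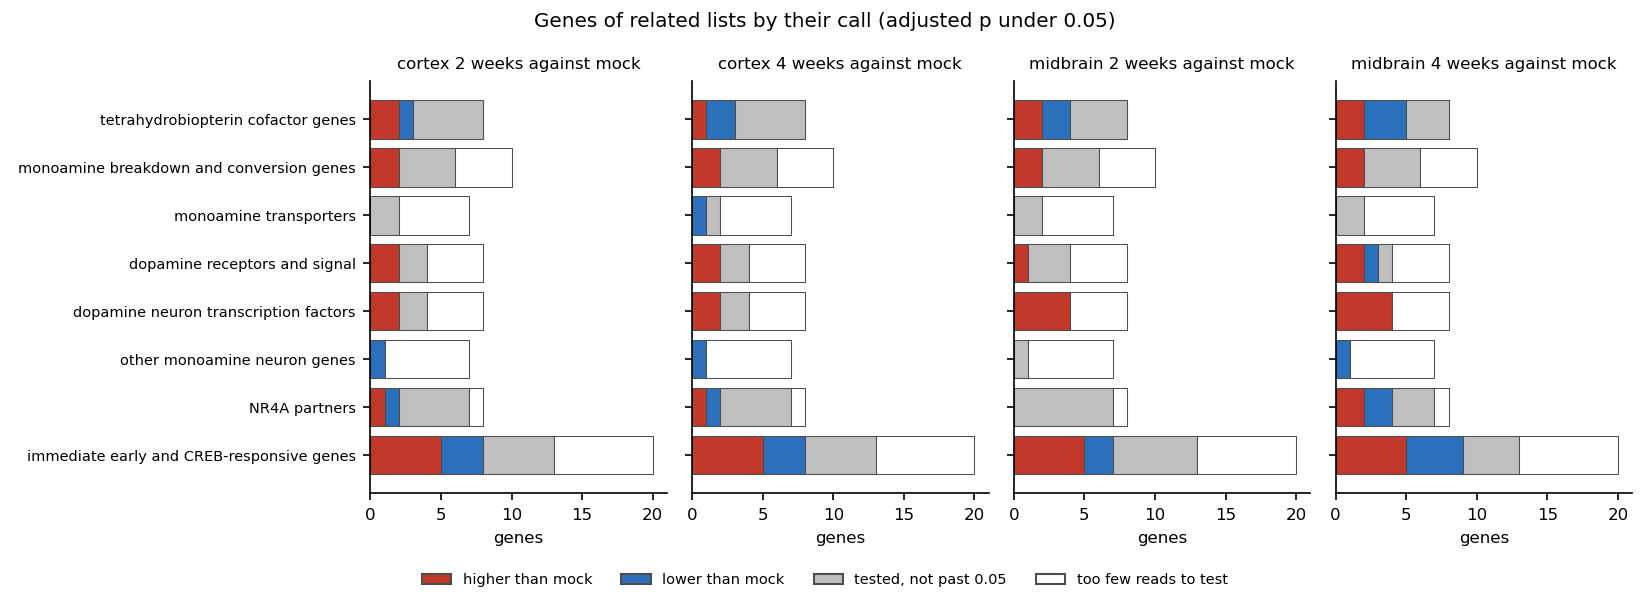
Number of genes (horizontal axis) of 8 related lists that were higher, lower, tested without passing, or had too few reads to test, in each comparison with mock. In midbrain all 4 tested transcription factors were higher at both times, and no list had its tested members all lower except the single tested gene of other monoamine neurons.

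Of 7 genes of other monoamine neurons 1 was tested. Hdc, which makes histamine, was lower in cortex at 2 weeks (-1.77 ± 0.52), cortex at 4 weeks (-1.66 ± 0.52) and midbrain at 4 weeks (-1.45 ± 0.44), and each call ended with a library left out. In cortex at 2 weeks that was mock library 2 (-1.57) or either 2-week library (-1.87, -1.67), and at 4 weeks mock library 2 (-1.46) or 4-week library 1 (-1.23). In midbrain it was mock library 2 (-1.18) or either 4-week library (-1.28, -1.65). DESeq2 made none of the 3 calls (adjusted p = 0.115, 0.133 and 0.123). Tph2, the serotonin enzyme of neurons, had 8 reads in all.

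Of 8 partners and cofactors of NR4A receptors 7 were tested, with 1 higher and 1 lower in cortex at each time, 0 in midbrain at 2 weeks, and 2 and 2 in midbrain at 4 weeks (medians -0.01, 0.13, -0.19 and -0.50), where 17.5 to 20.9% of all genes were called in each direction in cortex and 18.7 and 20.4% in midbrain at 4 weeks. Rxra, a retinoid X receptor that pairs with Nr4a1 and Nr4a2, was lower in cortex at 2 weeks (-1.11 ± 0.29) and 4 weeks (-0.89 ± 0.29). Ncoa3, a coactivator, was higher in cortex (1.09 and 1.16) and in midbrain at 4 weeks (1.01), and Ncoa1 (-0.86) and the corepressor Rcor1 (-1.41) were lower in midbrain at 4 weeks. Calls ended without 2-week library 1 (Rxra, -0.93), without mock library 1 or 2 or 4-week library 2 (Rxra in cortex at 4 weeks, -0.92, -0.86, -0.58), without midbrain 4-week library 1 (Ncoa3, 0.87), and without mock library 1 or 4-week library 2 (Ncoa1, -0.72, -0.66). Total reads ended the Ncoa3 calls (0.36, 0.08, 0.14), and a length offset that of Ncoa1 (-0.27) and turned that of Rcor1 (0.17).

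The immediate early and CREB-responsive list, to which the NR4A genes are related by class, had 13 of 20 tested. There were 5 higher and 3 lower in cortex at 2 and at 4 weeks, 5 and 2 in midbrain at 2 weeks, and 5 and 4 at 4 weeks (medians 0.69, 0.55, 0.92 and 0.50), where 15.9 to 18.7% of all genes were higher and 14.7 to 20.9% lower. Sik1, a kinase induced by cAMP, went from 0.315 ± 0.117 CPM in cortex mock to 9.49 ± 4.94 and 10.3 ± 3.49 (4.91 ± 0.53 and 5.03 ± 0.53, adjusted p = 5.38e-05 and 3.62e-05), and in midbrain by 3.98 ± 0.47 and 4.40 ± 0.47. Egr3, a zinc finger factor, had 0 reads in cortex mock and was at least 7.77-fold higher at 2 weeks and at least 14-fold higher at 4 weeks, and in midbrain it rose by 2.47 ± 0.59 and 3.10 ± 0.58. Fos fell in all 4 comparisons (-1.78, -2.65, -1.22 and -0.92 in the same order). Atf3 was lower in cortex at 2 weeks (-1.37 ± 0.42) and midbrain at 4 weeks (-1.50 ± 0.43), and at least 10.5-fold lower in cortex at 4 weeks, with 0 reads. Of the 15 calls of these 4 genes 4 ended with a library left out: Atf3 in cortex at 2 weeks (without mock library 1 -1.22, 2-week libraries -1.17 and -1.63) and in midbrain at 4 weeks (without mock library 2 -1.33, 4-week libraries -1.40 and -1.62), Egr3 in midbrain at 2 weeks (without 2-week library 1 2.37) and Fos in midbrain at 4 weeks (without mock library 2 -0.66, 4-week libraries -0.97 and -0.89). A length offset ended the Fos calls in cortex (-0.95) and midbrain (-0.48) at 2 weeks and turned that in midbrain at 4 weeks (0.07).

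Among 5679 genes with a mean of at least 10 CPM, the 3 whose log2(CPM + 1) followed each tested member most closely over the 12 libraries were listed as a description, since all points share libraries and scaling. For Maob they were Sst, Inmt and Aldh1a2 (Pearson r 0.968, 0.964 and 0.957), and for Maoa Hook2, Olfr338 and Gm37396 (0.953, 0.949, 0.941). For Nr4a1 they were Faah, Met and Adcy5 (0.931, 0.921, 0.918), for Nr4a2 Lrrc8d, Chl1 and Tsc22d4 (0.891, 0.882, 0.88), and for Nr4a3 Fam171a1, Pnpla2 and Gm29253 (0.944, 0.935, 0.925). For Th they were Larp1, the myelin gene Mbp and Washc2 (0.84, 0.833, 0.831), and for Slc18a2 Adcyap1r1, Ptp4a3 and Cavin3 (0.9, 0.887, 0.886).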

How the data were processed

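The labels' protocols describe cDNA primed at poly(A) with a biotinylated primer, bead capture and random priming of the other strand, so reads crowd near 3′ ends, and no molecular identifiers are described. The submitters' processing notes name cutadapt 2.3, Salmon 0.14.1, DESeq2 and mm10, and in the sources used here no annotation release is given. Each deposited file holds Salmon's estimated counts and TPM for every transcript of 1 library, as the authors made them, and TPM divides by a bias-corrected effective length.

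Estimated counts were summed per gene with GENCODE M21 (140137 of 140658 transcripts matched by ID without version) and rounded. The filterByExpr function of edgeR 4.0.16 (minimum count 10, total 15) kept 14607 genes. TMM-scaled counts of all 6 groups were fitted with its quasi-likelihood test in R 4.3.3 (6 residual degrees of freedom). P-values were adjusted by Benjamini-Hochberg over all genes within each of 11 comparisons, with a threshold of 0.05, and adjusted p-values without a named tool are edgeR's. Against 0 reads, a fold is a bound from 3 reads over the group. The procedure was tested on simulated data.

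Named were all 9 members, up to 4 genes called against mock per related list (largest change first), the Drd receptors, Slc6a3, Dbh, Tph2, Foxa2 and Lmx1a, and the 3 most similar genes per member. A further gene of the cofactor list that met this rule is not reported here. Members and lists were chosen with earlier results of these data known. Alternatives were RLE size factors, total reads, DESeq2 1.42.0, no or a strict filter (5 CPM in 2 libraries), a length offset, a replicate block, only the compared groups, no mitochondrial genes, each library left out, and both mock libraries of 1 number left out. With 1 library left in a group, its spread is taken from the other groups.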

Additional observations from a re-analysis of the deposited data

Results flagged for a closer look

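In 3 genes of the related lists the midbrain response minus the cortex response at 4 weeks passed edgeR's interaction test. It was -1.74 for Ppp1r1b (adjusted p = 0.0266), 1.73 for Fos (0.0398) and 6.36 for Atf3 (0.0338), the last a fitted value against 0 reads in cortex at 4 weeks and no bound. None of the 7 tested members passed it. With 1 library left out the Ppp1r1b value was -1.57 to -1.85 where it no longer passed (adjusted p 0.0513 to 0.151, without midbrain mock library 2 or any 4-week library). The Fos value was then 1.35 to 1.94 (0.061 to 0.22, without cortex mock library 2, midbrain mock library 1 or any 4-week library), and the Atf3 value 6.08 to 6.50 (0.0561 to 0.154, without mock library 1 of either region or any 4-week library). In a fit on only the compared groups none of the 3 passed (0.0918 for Ppp1r1b, 0.132 for Fos, 0.106 for Atf3). A length offset ended the call of Fos (1.70, 0.215) and Atf3 (6.40, 0.0534), and DESeq2 that of Atf3 (4.89, 0.111).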

How the results depend on the processing

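The number of called members depended on the setting, and the cause was not tested. In cortex at 2 weeks (4 members called) it was 0 with total reads and with a length offset, 1 with a strict filter, and 2 each with only the compared groups, without both mock libraries numbered 1, and with DESeq2. It was 1 to 3 with 1 library left out. In cortex at 4 weeks (0 called) it was 2 with total reads and without both mock libraries numbered 2, 1 with a length offset and without both numbered 1, and 0 to 2 with 1 library left out. From 2 to 4 weeks in cortex (0 called) it was 1, Maoa, with total reads, a length offset and only the compared groups. In midbrain at 4 weeks (2 called) it was 1 with total reads and a strict filter, 3 without a count filter (with Slc18a2) and without both mock libraries of either number, and 1 to 2 with 1 library left out. From 2 to 4 weeks in midbrain (1 called) it was 0 with total reads and 0 whichever library was left out. Between regions at 2 weeks (0 called) it was 2 with only the compared groups. At 4 weeks (1 called) it was 0 without a count filter, with a length offset, with DESeq2 and with any 1 library left out. The difference of the regions' responses at 4 weeks (0 called) gave 1 without both mock libraries numbered 1. In midbrain at 2 weeks (3 called) 1 library left out gave 2 to 4. The strict filter left 2 members to test (Maoa, Maob), and DESeq2 and no filter also tested Ddc and Gch1, which passed in no comparison with mock. The number of all genes called moved as well. In cortex at 2 weeks it was 5117 of 14607, and 7317 with total reads. With only the compared groups it went from 405 to 2608 of 10858 in cortex from 2 to 4 weeks. Between regions at 2 weeks it then went from 430 to 3209 of 11986. With any 1 compared library left out fewer were called in midbrain from 2 to 4 weeks and between regions at 4 weeks.

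Directions turned for Maob in cortex with total reads (-0.22 at 2 weeks, -0.74 at 4 weeks) and for Maoa in cortex at 4 weeks with total reads (-0.91) and a length offset (-1.02). With 1 library left out that Maoa value ran from -0.09 to 0.43. In midbrain at 4 weeks Maoa turned with total reads (-0.37) and a length offset (-0.04), Nr4a2 with total reads (-0.53), Nr4a3 with a length offset (-0.09), Rcor1 (0.17) and Fos (0.07) with a length offset. Th in midbrain at 4 weeks, at 0.03, was -0.80 with total reads, -0.04 without a filter, -0.32 with a length offset, -0.23 without both mock libraries numbered 1, -0.00 with DESeq2, and -0.90 to 0.57 with 1 library left out.

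The labels do not say that a replicate number pairs libraries. Deviations of same-numbered mock libraries correlated at 0.715 between the regions, and those of the other 14 pairs of groups at -0.0274 to 0.0306. With the replicate block 1 member was called from 2 to 4 weeks in cortex (Maoa), 3 in cortex at 2 weeks (without Nr4a2) and 4 in midbrain at 2 weeks (with Nr4a1).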
